A study of Xenopus laevis with 3 samples.

Results

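Heads of Xenopus laevis tadpoles that had received the Sox6 morpholino xSox6-MO were compared with heads that had received CoMO, 1 array against 1 array. The members of the comparison were chosen by the treatment label, which takes 2 of the 3 arrays of the series, and the remaining array came from heads given xMLTK-MO, against the protein kinase MLTK. In each group all cells of embryos at the 4-cell stage were injected at the animal pole with 10 ng of morpholino per cell, embryos were kept at 22 °C, and the heads were taken at 72 hours of age, about stage 41. The labels do not spell out the name CoMO, and the number of heads per sample and the clutches they came from are not given in the sources used here. The arrays do not measure Sox6 protein, so its depletion cannot be read from them. On the arrays 0 annotated probe sets carried the symbols sox6, sox5 or map3k20 (MLTK). With 1 array per group there was no spread between embryos to set a difference against, so no test was run and every value describes these arrays only.

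Sox6 is a transcription factor of the SoxD group, which binds DNA through an HMG box and acts with partner proteins. In mouse it works with Sox5 and Sox9 in chondrocytes, where the trio drives genes of the cartilage matrix. In zebrafish and mouse muscle it is known as a repressor of slow-fibre genes, and in mouse red cells as a silencer of embryonic globin genes. A stage 41 head holds forming jaw and gill cartilages, jaw and eye muscles, brain, lens and retina, inner ear, epidermis and circulating blood.

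The array measures each transcript by one or more probe sets, groups of short probes whose brightness is the intensity. Probe sets with 1 gene symbol gave 11303 genes, with the homeologs of this species (.L and .S) kept apart. Of these, 9764 were brighter than the highest negative control probe set on at least 1 of the 2 arrays and are called measured here, and 1539 were not. Differences are log2 intensities of xSox6-MO minus CoMO, so that -1 is 2-fold lower, and fold values are ratios of intensities. The median difference over the measured genes was -0.02, with quartiles at -0.21 and 0.18. At least 2-fold lower were 110 genes, 1.13% of those measured, and 118 or 1.21% were at least 2-fold higher. At 1.5-fold the shares were 5.43% lower and 4.56% higher, and by any amount 52.1% and 47.9%. Those shares are the background against which the counts within gene groups are given.

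How far probe sets of the same gene disagree can be read from genes with several of them. They share the same RNA samples, so an effect common to a sample or its labelling is not seen in this value. Over 2008 such genes the differences given by probe sets of the same gene had an SD of 0.26. Homeolog pairs, which are separate genes, differed from each other by a median of 0.19 over 1676 pairs. Among 57 pairs with at least 1 homeolog past 2-fold, both had the same sign in 50 and both were past 2-fold in 18. The share with the same sign over all 1676 pairs was not computed. Close copies may share probes, and their values are then not separate measurements. Added control transcripts were dimmer on the xSox6-MO array, by a median of -0.15 over 27 hybridisation control probe sets and -0.35 over 36 poly-A control probe sets. Centring on them moves the median of all genes to 0.14 and 0.33, so negative differences smaller in size than these shifts would turn positive, and the groups are best read relative to the median of all genes. The ratio of 3' to 5' signal of the gapdh control, a sign of RNA integrity, was 1.85 in CoMO, 1.99 in xMLTK-MO and 2.16 in xSox6-MO, and its part in the results was not tested. Of the posterior Hox genes, which mark the trunk, 1 of 16 was measured, against 7 of 8 anterior Hox genes. Measured in larger part than the posterior Hox genes were 40 of 44 liver, 15 of 23 kidney, 8 of 15 notochord and 12 of 31 exocrine pancreas genes. Over all genes 9764 of 11303 were measured.

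Gene lists were written for 101 tissues, pathways and complexes, and 100 of them had at least 5 measured members. A list is described as lower or higher where its median difference lay at least 0.2 from 0, which held for 18 lists on the lower side and 11 on the higher side. Taken from the median of all genes instead, collagen modification (-0.19), small leucine-rich proteoglycans (-0.19) and erythroid genes (-0.197) lie just inside that limit and translation factors (0.21) just outside it. The lists with the lowest medians were the crystallins, the cartilage matrix, cone phototransduction and the slow and cardiac-type sarcomere. Those with the highest medians were the exocrine pancreas, the heart and ribosome biogenesis, of which the pancreas had 12 of 31 genes measured and a median of 0.045 with no filter on low values, against 0.43 for the heart. The 10 lists of muscle contraction and energy, lens structure, photoreceptors, and cartilage matrix and its synthesis held 194 measured genes, 1.99% of those measured, with 42 of the 110 genes at least 2-fold lower and 1 of the 118 at least 2-fold higher. With the myogenic regulators added they held 210 genes, 2.15% of those measured, and 4 of the 118. These lists were put together after their values were seen. Several lists of structural genes were brighter than those of regulators. Median log2 intensities in CoMO were 10.8 for crystallins, 9.94 for the slow sarcomere and 9.60 for the cartilage matrix. They were 6.97 for photoreceptor, 6.36 for myogenic and 7.23 for chondrogenic regulators. Lens fibre structure, at 7.91, was not brighter than lens regulators, at 8.14. The part of brightness in the differences was not tested. In bulk RNA, fewer cells of a type and less RNA per cell cannot be told apart, which holds for each tissue described here.

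**Figure D1:**
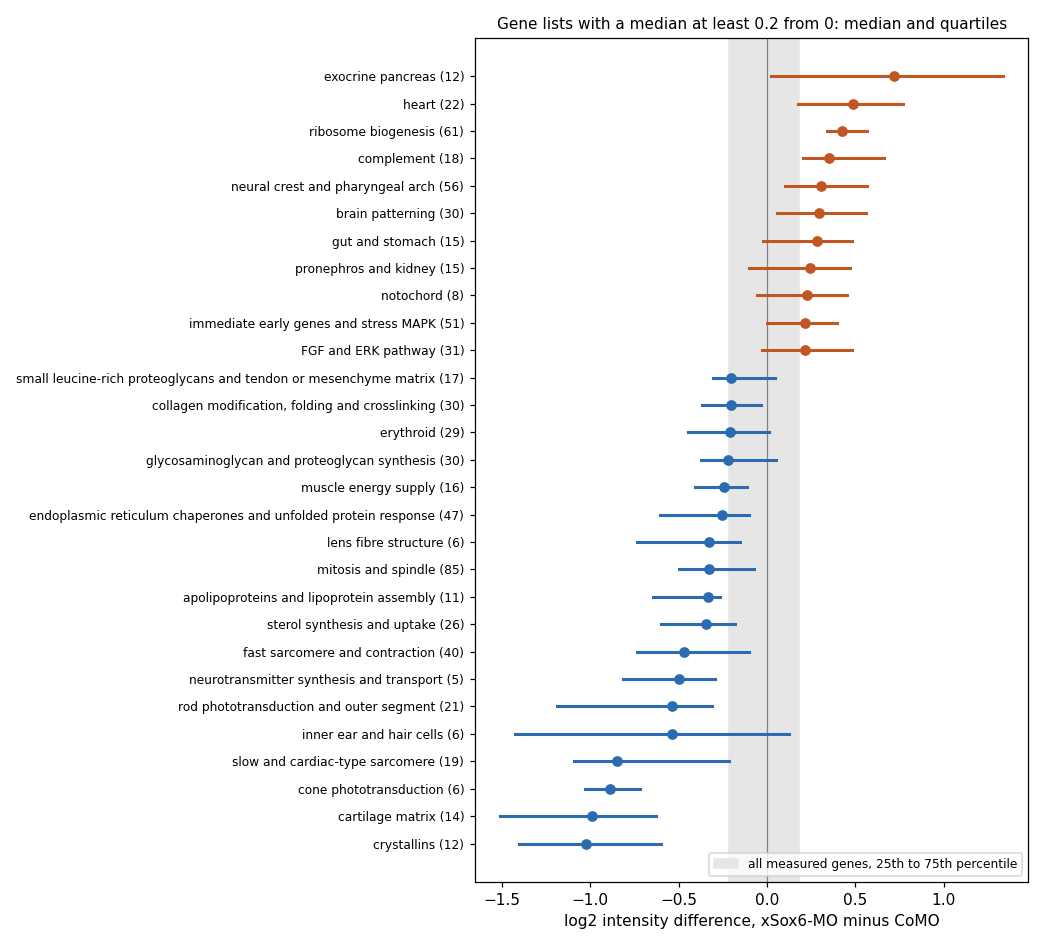
Median (point) and quartiles (bar) of the log2 intensity difference, xSox6-MO minus CoMO, for the 29 gene lists with a median at least 0.2 from 0, with the number of measured members in parentheses. Blue lists are lower and orange lists higher, and the grey band spans the quartiles of the 9764 measured genes, -0.21 to 0.18. Centred on poly-A controls, the medians of 10 lists between -0.35 and -0.20 turn positive.

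Genes of the cartilage matrix were lower, and its regulators split evenly. Of 16 annotated cartilage matrix genes 14 were measured, 13 of these were lower (7 of them past 2-fold), and their median was -0.99. Among the 7 were both otospiralin homeologs, otos.S (-1.70) and otos.L (-1.62), which the inner ear list also holds. Matrilin 1 (matn1.L), an oligomeric protein of cartilage matrix, gave an intensity of 107 in CoMO and stayed at or under the negative controls in either morphant, so it was at least 5.10-fold lower in xSox6-MO. Chondromodulin, a cartilage membrane protein that restrains vessel growth, had an intensity of 2247 in CoMO, 1336 in xMLTK-MO and 1015 in xSox6-MO for cnmd.L, a difference of -1.15 for xSox6-MO. Both homeologs were past 2-fold, with cnmd.S at 149, 58.5 and 49.7.

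The 3 chains of collagen IX, which decorates the surface of collagen II fibrils, were all lower and by unequal amounts. The chain gene col9a2.L had an intensity of 1050 in CoMO, 663 in xMLTK-MO and 434 in xSox6-MO, a difference of -1.28. For col9a3.L the values were 3420, 2542 and 1976 (-0.79), and for col9a1.L they were 2633, 1904 and 1764 (-0.58). The fibril collagen itself, col2a1.L, was the least different of these, at 6050, 4802 and 5409 (-0.16) (positive with poly-A centring). The link protein gene hapln3.L stood at -0.38 and its homeolog hapln3.S, the only measured member above 0, at 0.15. Epiphycan (epyc.S), a small proteoglycan of growth cartilage, had intensities of 1330, 825 and 649.

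Genes that build the sugar chains of proteoglycans were mixed, with the supply of their precursors on the lower side. Of 30 measured genes of glycosaminoglycan and proteoglycan synthesis 21 were lower (2 of them past 2-fold), and their median of -0.22 was -0.11 with the brightest probe set of each gene and turns positive with poly-A centring. UDP-glucose dehydrogenase (ugdh.L), which makes the glucuronic acid donor of these chains, had an intensity of 219 in CoMO, 175 in xMLTK-MO and 87.4 in xSox6-MO, a difference of -1.32. Its homeolog ugdh.S differed by only -0.23. The sulfate donor synthase papss2.S had intensities of 771, 433 and 372 (-1.05), and its relative papss1.L had 501, 408 and 312 (-0.68). All 6 measured genes of sulfate and sugar nucleotide supply, a subgroup picked after its values were seen, were lower, with a median of -0.57. Of 6 measured heparan sulfate polymerase genes, also grouped after their values were seen, 4 were higher and 2 lower at a median of 0.17, from -0.26 to ext2.L at 0.51, with ext1.L at 0.48. The chain initiating xylosyltransferase gene xylt1.L, at -0.47, was on the lower side.

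Collagen modification and the proteoglycans of fibrous tissue had small negative medians that lay nearer to 0 than 0.2 in several alternatives. Of 30 measured genes of collagen modification, folding and crosslinking 23 were lower, with a median of -0.20 that turns positive with poly-A centring. The crosslinking enzyme lysyl oxidase (lox.L) was the member past 2-fold, with an intensity of 68.7 in CoMO, 34.5 in xMLTK-MO and 23.5 in xSox6-MO. The collagen chaperone serpinh1.S had intensities of 1053, 574 and 580 and its homeolog serpinh1.L 220, 139 and 139, which places both morphants at nearly the same level. The collagen lysyl hydroxylase gene plod3.L stood at 0.37. Among 17 measured small leucine-rich proteoglycan and tendon genes, 12 were lower, with a median of -0.20 (-0.10 with homeologs averaged, positive with poly-A centring), and asporin (aspn.L) was at least 3.98-fold lower from an intensity of 83.7 in CoMO. Decorin (dcn.L), of the same family, was higher, at 851 in CoMO and 1116 in xSox6-MO.

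The connective tissue collagens as a list stood close to all genes, with a median of 0.01 over 6 genes. Collagen I (col1a1.S), the main collagen of bone, skin and tendon, had intensities of 7018, 7024 and 7288. Regulators of chondrocyte formation split evenly, 8 lower and 7 higher of 15 measured, with a median of -0.04 that turns positive with either centring, and 0 were past 2-fold. The joint factor gdf5.L stood at -0.86, the SoxE factor sox8.L at -0.57 and the receptor gene fgfr3.L at -0.46. The ligand gene bmp4.S stood on the other side at 0.57.

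Genes of the neural crest and pharyngeal arches, the precursors of the head skeleton, were on the higher side. Of 56 measured genes 47 were higher and 1 was at least 2-fold higher, against 47.9% of all genes higher by any amount, and the median was 0.31. The arch mesenchyme factor msx1.S had an intensity of 87.2 in CoMO, 158 in xMLTK-MO and 178 in xSox6-MO, a difference of 1.03. The Hox gene of the second arch was higher in both homeologs, with hoxa2.S at 130, 152 and 244 (0.92) and hoxa2.L at 110, 134 and 205 (0.90). Other arch factor genes followed, such as tbx3.S at 0.86 and foxf1.S at 0.86. Lower were 9 genes, the lowest of them sox10.L, which marks crest-derived glia and pigment precursors, with 217, 118 and 113 (-0.95).

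**Figure D2:**
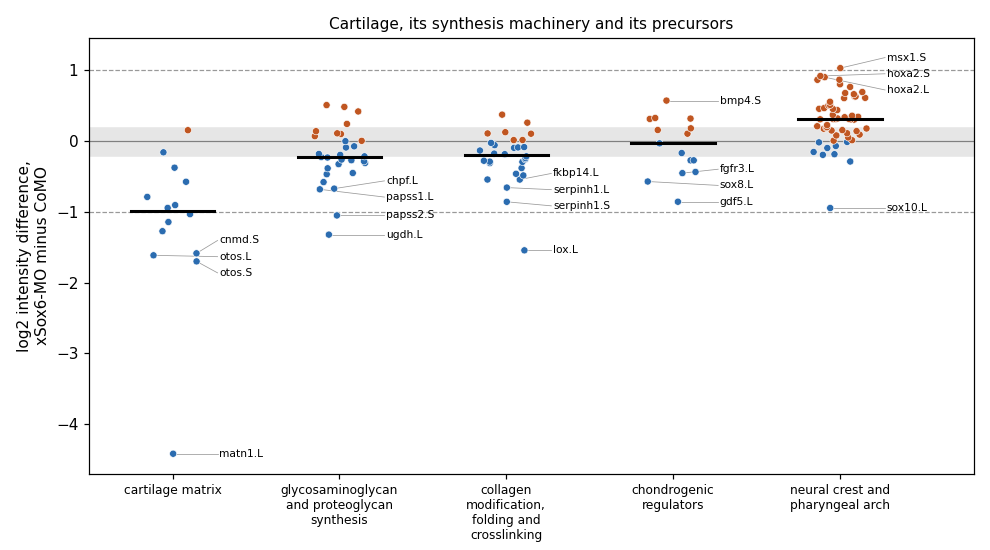
Log2 intensity difference, xSox6-MO minus CoMO, of each measured gene (point) in 5 lists from the cartilage matrix to its precursors, with the list median as a black bar, dashed lines at 2-fold and the quartiles of all measured genes in grey. The matrix list lies lowest, with a median of -0.99, and the neural crest and arch list highest, at 0.31. The point of matn1.L at -4.42 is a raw value, and its bound is a fold of at least 5.10. With poly-A centring the medians of the synthesis, collagen modification and regulator lists turn positive.

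Inner ear genes were few. Of 6 measured members 4 were lower and 2 of these were past 2-fold, both otospiralin homeologs that the cartilage list also holds, and the median of -0.54 became -0.22 without otos.S and -1.62 with the filter on the mean level. The otic matrix gene tecta.2.S stood at -0.86, while the otic regulator pax2.L stood at 0.24.

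Contractile genes of muscle were lower, and those of the slow and cardiac type lay furthest down. All 19 annotated slow and cardiac-type sarcomere genes were measured, and 15 were lower (8 of them past 2-fold). Their median was -0.85, against -0.98 for xMLTK-MO. Slow troponin I had an intensity of 979 in CoMO, 209 in xMLTK-MO and 221 in xSox6-MO for tnni1.2.L (-2.15), and 1569, 683 and 484 for tnni1.S (-1.70). The regulatory light chain gene myl2.S, expressed in slow and ventricular muscle, had 5489, 1786 and 1385 (-1.99), and the cardiac and slow troponin C gene tnnc1.S had 1386, 557 and 569 (-1.28). The slow troponin T gene tnnt1.S, with 48.6 in CoMO and 23.9 in xSox6-MO, was 2.03-fold lower. The other troponin C homeolog, tnnc1.L, was less different, with 1177, 824 and 957 (-0.30, positive with poly-A centring).

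Beyond the troponins, the myosin heavy chain gene myh6.S had intensities of 2664, 1200 and 1303 (-1.03). The calcium pump of slow and cardiac muscle, atp2a2.S, had 476, 234 and 235 (-1.02), and the Z-disc protein gene myoz2.L had 701, 299 and 315 (-1.15). In these 3 genes both morphants sat at about the same level. Higher were 4 of the 19, among them both homeologs of ankrd2, a stretch-responsive ankyrin repeat protein of slow muscle. For ankrd2.L the values were 36.6, 72.7 and 104 (2.83-fold higher), and ankrd2.S was at least 1.42-fold higher, since its CoMO value did not pass the negative controls.

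Genes of the fast sarcomere and contraction list, which is not limited to genes of fast fibres, were lower in greater number and by less. Of 40 measured fast sarcomere and contraction genes 38 were lower (5 of them past 2-fold), and their median was -0.47. The titin cap gene tcap.S had an intensity of 142 in CoMO, 114 in xMLTK-MO and 49.4 in xSox6-MO (-1.53), a value apart from both other arrays. Skeletal actin (acta1.S) had 118, 43.0 and 49.5, and klhl40.S, a stabiliser of thin filaments, had 188, 80.5 and 77.5. Beta tropomyosin was lower in both homeologs, with tpm2.S at -1.01 and tpm2.L at -0.95. The Z-disc protein gene myoz1.L stood at -1.18 and its homeolog myoz1.S at -0.22 (positive with poly-A centring). The bright fast myosin gene myh4.L stood at -0.46 and the fast troponin C gene tnnc2.L at -0.55. In the other direction the fast troponin T gene tnnt3.S stood at 0.33 and a desmin gene, des.2.S, at 0.39.

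The energy supply of muscle was lower by a smaller median, with 15 of 16 measured genes lower at a median of -0.24 that turns positive with poly-A centring. The ADP/ATP carrier of muscle mitochondria, slc25a4.L, had an intensity of 401 in CoMO, 211 in xMLTK-MO and 110 in xSox6-MO (-1.86). The muscle creatine kinase gene ckm.L, averaged over 6 probe sets, had 1166, 1298 and 1102 (-0.08), a sign that turns with either centring. Muscle phosphoglycerate mutase lay between these, with pgam2.L at -0.75 and pgam2.S at -0.73. In the neuromuscular junction list 6 of 7 genes were lower, with a median of -0.15 that turns with either centring, and the acetylcholine receptor delta subunit chrnd.L stood at -0.81.

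Further muscle genes stood among the genes past 2-fold that belonged to no list. The muscle protease gene capn3.L had an intensity of 527 in CoMO, 323 in xMLTK-MO and 197 in xSox6-MO. The membrane coat genes of muscle caveolae, cav3.2.S and cavin4.S, stood at -1.26 and -1.14. The LIM protein gene fhl1.S stood at -1.51 and the musculoskeletal nuclear protein gene mustn1.L at -1.55. These 5 genes were picked from 40 unlisted lower genes after their values were seen.

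The transcription factors that start muscle differentiation went the opposite way from the contractile genes. Myogenin, which drives the last step of myoblast differentiation, had an intensity of 291 in CoMO, 577 in xMLTK-MO and 868 in xSox6-MO for myog.S (1.58), and 49.5, 78.2 and 120 for myog.L (1.28). The determination factor myod1.L had 70.8, 128 and 157 (1.15), and its homeolog myod1.S stood at 0.76. In each of these genes xSox6-MO was the highest array and CoMO the lowest. Myf6, a factor of the same family that is prominent in mature fibres, was lower, with myf6.S at -0.66 and myf6.L at -0.56. Over the 7 myogenic factor genes, a subgroup chosen after their values were seen, 5 were higher and the median was 0.76. The wider list of myogenic regulators and muscle stem cell genes had 8 lower and 8 higher genes.

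Heart genes likewise divided by role. Of 22 measured genes 18 were higher, 3 at least 2-fold higher, and the median was 0.49. The cardiac transcription factor gata5 was higher in both homeologs, with gata5.L at 114 in CoMO, 362 in xMLTK-MO and 269 in xSox6-MO (1.24), and gata5.S at 85.3, 238 and 186 (1.12). The T-box factor tbx5.L stood at 0.90 and hand2.S at 0.80. Of 13 annotated cardiac transcription factor genes, a subgroup formed after values were seen, 11 were measured. All 11 were higher, with a median of 0.68, and several of these factors are also expressed in gut or arches. The natriuretic peptide gene nppb.L, a hormone of heart muscle, had 127, 349 and 303 (1.26).

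Cardiac contractile proteins did not follow the factors. Over 6 genes, again grouped after the values were seen, 3 were lower and 3 higher, with a median of -0.04 that turns with either centring. The group holds mybpc3.S, tnnt2.L and both homeologs of myl4 and tnni3. It leaves out contractile genes of the slow and cardiac type, such as myl2.S (-1.99), tnnc1.S (-1.28), the myosin heavy chain gene myh6.S (-1.03) and atp2a2.S (-1.02). Those stand in the slow and cardiac-type list, where 15 of 19 genes were lower. The cardiac myosin binding protein gene mybpc3.S stood at -0.53, cardiac troponin T tnnt2.L at -0.34 (positive with poly-A centring) and cardiac troponin I tnni3.L at 0.66.

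**Figure D3:**
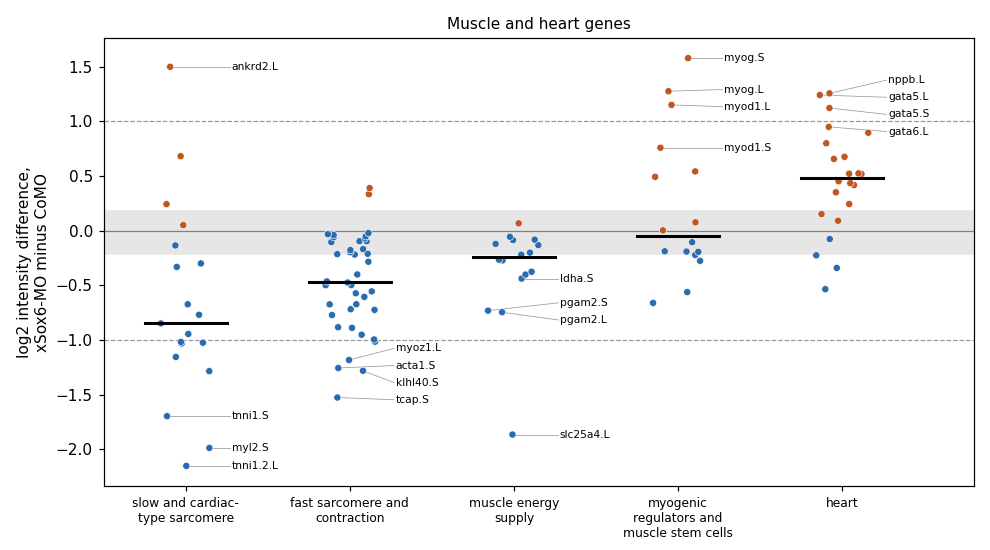
Log2 intensity difference, xSox6-MO minus CoMO, of each measured gene (point) in 5 muscle and heart lists, with medians as black bars, dashed lines at 2-fold and the quartiles of all genes in grey. Slow sarcomere genes have the lowest median, -0.85, fast sarcomere genes stand at -0.47, muscle energy supply at -0.24 (positive with poly-A centring), and the heart list at 0.49. The regulators divide between myog and myod1 above 0 and myf6 below it.

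In the eye, structural genes of the lens and of both photoreceptor classes were lower, and the lists of their regulators were not. Every one of 12 measured crystallin genes, which encode the soluble proteins of the lens, was lower (6 of them past 2-fold), and their median was -1.03. The gamma crystallin gene crygbl.4.S had an intensity of 5722 in CoMO, 1826 in xMLTK-MO and 195 in xSox6-MO (-4.88). Its paralog crygbl.1.L had 1519, 851 and 211 (-2.84), and the chaperone-like alpha crystallin cryaa.S had 342, 237 and 80.3 (-2.09). In these 3 genes the xMLTK-MO array lay between the others, nearer to CoMO on the log2 scale.

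By class, 6 gamma crystallin genes had a median of -1.14 and 5 beta crystallin genes one of -0.66. Among the beta class cryba2.S had intensities of 3030, 2782 and 1445 (-1.07) and crybb1.L had 2984, 2402 and 1888 (-0.66). Lens fibre structure genes were lower in 6 of 6 cases, with a median of -0.33 that turns positive with poly-A centring. The beaded filament gene bfsp1.L had 362, 273 and 143, and the water channel gene of fibre membranes differed between homeologs, with mip.S at -0.84 and mip.L at -0.04 (positive with either centring). Of 16 measured regulators of lens development 12 were higher and 4 lower, with a median of 0.10. There sox1.S stood at 0.42, pax6.L at -0.11 and prox1.L at -0.12, the last pair turning positive with either centring.

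Rod genes were lower in 19 of 21 measured cases, 8 at least 2-fold, with a median of -0.54. Rod arrestin, which quenches activated rhodopsin, had an intensity of 1291 in CoMO, 935 in xMLTK-MO and 489 in xSox6-MO for sag.S, and 1208, 812 and 516 for sag.L. The retinoid flippase of the disc membrane, abca4.L, had 1142, 941 and 477 (-1.26), and rhodopsin kinase (grk1.L) had 357, 174 and 141 (-1.34). Rod transducin was past 2-fold in both homeologs, with 865, 594 and 379 for gnat1.S and 827, 657 and 412 for gnat1.L, as was the disc rim protein, at -1.29 for rom1.S and -1.10 for rom1.L. The transducin gamma subunit gngt1.L was less different, at -0.40, and the recoverin gene rcvrn.2.S stood at 0.10.

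Cone genes were lower in 6 of 6 cases, 3 at least 2-fold, with a median of -0.89. The long wavelength opsin gene opn1lw.L had an intensity of 1381 in CoMO, 1074 in xMLTK-MO and 627 in xSox6-MO (-1.14). The cone phosphodiesterase subunit had 1105, 1264 and 540 for pde6h.L and 731, 815 and 359 for pde6h.S, both at -1.03. Cone transducin (gnat2.S) had 1226, 1471 and 732 (-0.74), cone arrestin (arr3.L) had 3487, 4609 and 2302 (-0.60), and the short wavelength opsin opn1sw.L had 855, 974 and 523 (-0.71). In 5 of these 6 genes CoMO lay between the morphants, with xMLTK-MO above it. Side by side, the cone median was -0.89 for xSox6-MO and 0.19 for xMLTK-MO, against the same CoMO array, and the gap between morphants could not be tested.

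The other layers of the eye were near the median of all genes. Photoreceptor and retinal regulators had 14 of 21 genes higher and a median of 0.08, with crx.L, the photoreceptor homeobox factor, at -0.24 (positive with poly-A centring) and neurod4.L at -0.67. Retinal interneurons, ganglion cells and Mueller glia had a median of 0.01 over 17 genes. Visual cycle and pigment epithelium genes had one of 0.03 over 21 genes, against -0.30 for xMLTK-MO. The isomerase of the visual cycle, rpe65.L, had intensities of 961 in CoMO, 546 in xMLTK-MO and 857 in xSox6-MO.

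**Figure D4:**
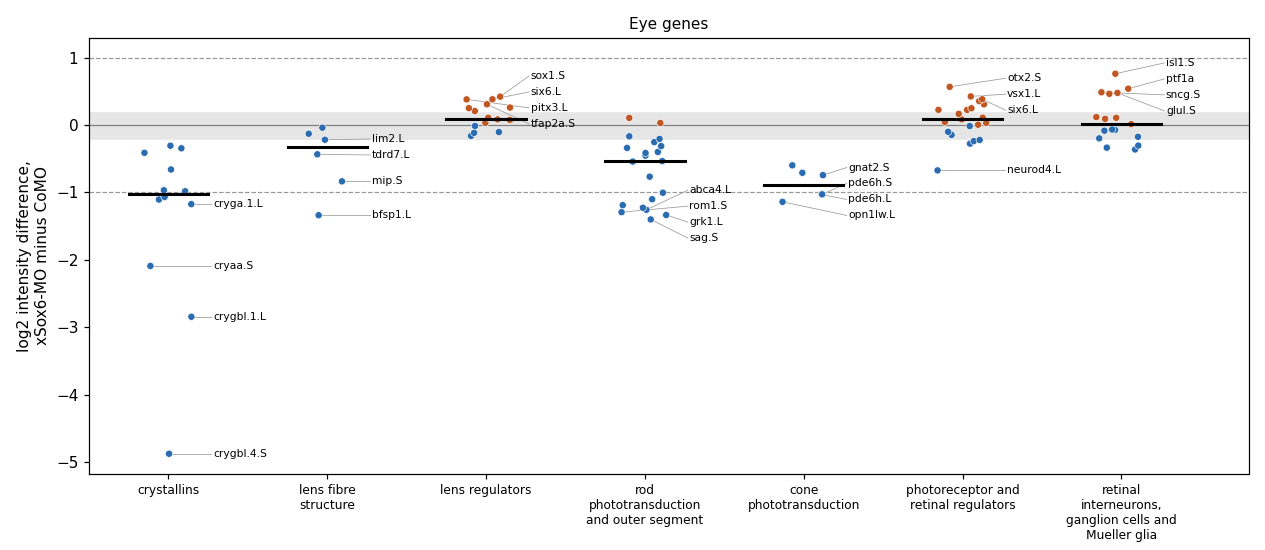
Log2 intensity difference, xSox6-MO minus CoMO, of each measured gene (point) in 7 eye lists, with medians as black bars, dashed lines at 2-fold and the quartiles of all genes in grey. Crystallins (-1.03), cone genes (-0.89) and rod genes (-0.54) lie below 0, while lens regulators (0.10), photoreceptor regulators (0.08) and retinal neurons (0.01) lie near it. The lens fibre structure median of -0.33 turns positive with poly-A centring.

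Among nervous system genes, the list of patterning factors was higher and that of pan-neuronal and synaptic genes was not. Of 30 measured brain patterning genes 26 were higher, 0 past 2-fold, and the median was 0.30, against 0.03 for xMLTK-MO. The forebrain LIM factor lhx5.S had an intensity of 79.6 in CoMO, 76.2 in xMLTK-MO and 138 in xSox6-MO (0.79). The ventral factor nkx2-2.S had 40.8, 57.2 and 71.9 (0.82), and the midbrain to hindbrain boundary factor en2.S had 91.0, 107 and 146 (0.69). Going the other way were eomes.L at -0.42 and barhl2.S at -0.34, of which the latter turns with poly-A centring.

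Neural progenitor genes were higher in 30 of 42 cases, with a median of 0.16, among them the hes5 group of Notch effectors. The gene hes5.1.L had an intensity of 374 in CoMO, 328 in xMLTK-MO and 606 in xSox6-MO. Of 9 hes5 genes, grouped after their values were seen and close enough in sequence to share probes, 8 were higher, with a median of 0.58 for xSox6-MO and -0.05 for xMLTK-MO. In the Notch pathway list as a whole 21 of 36 genes were higher, with a median of 0.08, and the ubiquitin ligase dtx4.L was past 2-fold at 1.06.

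Pan-neuronal and synaptic genes had 30 of 46 lower, with a median of -0.09 that turns with either centring. The vesicle protein gene syn1.S stood at -0.70 and the neurofilament gene nefm.L at 0.54. In the short list of transmitter synthesis and transport 4 of 5 genes were lower, with a median of -0.50. There the glutamate vesicle transporter slc17a7.L was at least 1.77-fold lower and the GABA synthesis gene gad1.1.L stood at -0.50. The intermediate filament peripherin, a marker of peripheral neurons, belonged to no list and was past 2-fold in both homeologs. It had 622, 794 and 1975 for prph.S (1.67) and 1299, 1394 and 2686 for prph.L (1.05), with xSox6-MO far above both other arrays.

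Signalling pathways differed little as lists. In the FGF and ERK list 22 of 31 genes were higher, with a median of 0.21 against 0.06 for xMLTK-MO. That median lay under 0.2 in 6 alternatives, down to 0.069 with no filter on low values. Dual specificity phosphatase 6, a feedback target of ERK, had an intensity of 232 in CoMO, 451 in xMLTK-MO and 401 in xSox6-MO for dusp6.S and 228, 391 and 353 for dusp6.L. The ETS factor etv4.L, another target of the pathway, stood at 0.62. Wnt genes had a median of 0.12 over 63 genes, Hedgehog genes 0.17 over 12, and BMP and TGF-beta genes split evenly, 27 lower and 27 higher of 54. Immediate early and stress MAPK genes were higher in 38 of 51 cases with a median of 0.22, against 0.35 for xMLTK-MO. The xSox6-MO median was just under 0.2 with the brightest probe set of each gene. Both homeologs of the early response factor klf10 were past 2-fold, with klf10.S at 133, 264 and 307 and klf10.L at 381, 766 and 793.

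Ribosome assembly genes lay close together above 0. Of 61 measured ribosome biogenesis genes 58 were higher and 0 were past 2-fold in either direction, and the median was 0.43, against 0.27 for xMLTK-MO. The nucleolar helicase ddx21.L had an intensity of 1909 in CoMO, 2677 in xMLTK-MO and 3760 in xSox6-MO (0.98). The box C/D particle protein nop58.S had 1349, 2118 and 2434 (0.85), and the RNA polymerase I subunit polr1e.L had 760, 1141 and 1283 (0.75). In all 3 the order of arrays was CoMO, xMLTK-MO and xSox6-MO. The lowest members were nop56.L at -0.06 and nop10.S at -0.05, both of which turn positive with either centring.

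The RNA polymerase I initiation factor rrn3.L, which is in no list, had intensities of 97.2, 195 and 347 (1.84). With it, 9 of 9 genes of polymerase I and its factors were higher, with a median of 0.39, a group formed after the values were seen. Of the 62 unlisted genes at least 2-fold higher, several others also have known roles in making ribosomes, and were picked after their values were seen. They were the large subunit assembly factors rpf1.L (567, 986 and 1300) and mak16.L (511, 775 and 1110), the helicase ddx52.S (180, 372 and 421), and gtf3a.L, the 5S gene factor (97.0, 235 and 215). The homeologs mak16.S and ddx52.L were less different, at 0.26 and 0.73.

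Translation factors were higher in 45 of 58 cases at a median of 0.19, and the start codon factor eif5.S had an intensity of 2152 in CoMO, 3781 in xMLTK-MO and 4549 in xSox6-MO. Genes of the cytosolic ribosomal proteins themselves were close to all genes, with a median of 0.07 over 86 genes. Of these rps6.L stood at 1.03 and rpl27.S at -0.86. Splicing factors had 96 of 140 higher at a median of 0.15, and subunits of the cytosolic chaperonin with prefoldin 14 of 16 higher at 0.11. Proteasome subunits had a median of -0.02 (positive with either centring) over 63 genes, with psmb3.S at 1432, 1406 and 632 as the member past 2-fold.

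Genes of cell division were lower in mitosis more than in replication. In the mitosis and spindle list 68 of 85 measured genes were lower, 2 of them past 2-fold, at a median of -0.33 that turns positive with poly-A centring, against -0.55 for xMLTK-MO. The checkpoint kinase bub1.L had an intensity of 411 in CoMO, 168 in xMLTK-MO and 179 in xSox6-MO. The spindle kinase plk1.S had 984, 559 and 639 (-0.62) and the kinesin kif20b.S had 106, 64.6 and 51.4 (-1.04). DNA replication genes had 45 of 71 lower and a median of -0.11 that turns with either centring, against -0.35 for xMLTK-MO. There the nucleotide enzymes dut.L and tyms.L stood at -0.61 and -0.59, and the fork protein tipin.S at 0.68.

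Of the secretory path, the endoplasmic reticulum chaperones lay past 0.2 on the lower side and the Golgi traffic list did not. Of 47 measured endoplasmic reticulum chaperone and unfolded protein response genes 42 were lower, with a median of -0.25 that turns positive with poly-A centring. The median of this list for xMLTK-MO was -0.31. The chaperone hsp90b1.S had an intensity of 2887 in CoMO, 1336 in xMLTK-MO and 1511 in xSox6-MO (-0.93), and the disulfide isomerases pdia6.L and pdia4.L stood at -0.97 and -0.89. The best known of these chaperones, hspa5.L, had 2125, 1544 and 1782 (-0.25, positive with poly-A centring). Within this list the stress factor ddit3.L alone was past 2-fold, on the higher side, with 136, 293 and 281. Other endoplasmic reticulum genes past 2-fold stood outside it and were picked after their values were seen. They were ern2.S (-1.21) and erlin2.L (-1.52), in no list, and the disulfide isomerase gene pdia2.L (1.51), of the pancreas list. Vesicle coat and Golgi traffic genes had 64 of 85 lower at -0.14, a median that turns with either centring. Of autophagy and lysosome genes 45 of 56 were lower at -0.18 (positive with poly-A centring), with the protease ctsl.L at 401, 169 and 138 and the acid lipase lipa.L at -1.04.

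Cytosolic heat shock genes as a list stood at -0.09, a median that turns with either centring, with 3 of 51 genes past 2-fold on the lower side. The small chaperone Hspb1, strongly expressed in muscle, was lower in both homeologs, with hspb1.L at -1.87 and hspb1.S at -1.56, and hsp70.L stood at -1.06.

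Sterol genes were lower with xSox6-MO at the far end of the arrays. Of 26 measured genes of sterol synthesis and uptake 22 were lower, 4 of them past 2-fold, at a median of -0.34 that is 0.002 with poly-A centring, against -0.16 for xMLTK-MO. Lanosterol demethylase had an intensity of 204 in CoMO, 137 in xMLTK-MO and 73.6 in xSox6-MO for cyp51a1.S (-1.47), and 214, 181 and 91.8 for cyp51a1.L (-1.22). The retention protein insig1, itself a sterol-regulated gene, had 79.6, 58.2 and 33.2 for insig1.L and 72.7, 37.3 and 32.9 for insig1.S. The homeologs of the synthase gene hmgcs1 were less different than those of cyp51a1 and insig1. They stood at -0.73 for hmgcs1.S and -0.20 for hmgcs1.L (positive with poly-A centring), and the scaffold gene scap.S stood at 0.07. In 15 enzymes of the pathway, grouped after the values were seen, 13 were lower at a median of -0.43.

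Carriers of lipid in blood were also on the lower side, 9 of 11 at a median of -0.34, which turns to 0.01 with poly-A centring and was 0.05 for xMLTK-MO. Apolipoprotein A-I had an intensity of 1796 in CoMO, 1857 in xMLTK-MO and 919 in xSox6-MO for apoa1.L (-0.97), with apoa1.S at -0.29 (positive with poly-A centring). Apolipoprotein E (apoe.L) stood at -0.69, the phospholipid transfer gene pltp.S at -0.92, and the ester transfer gene cetp.L at 0.83. The desaturase scd.S, a lipid synthesis gene, had 422, 229 and 177 (-1.26). Fatty acid oxidation and peroxisome genes were lower in 37 of 50 cases at -0.18, positive with poly-A centring.

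**Figure D5:**
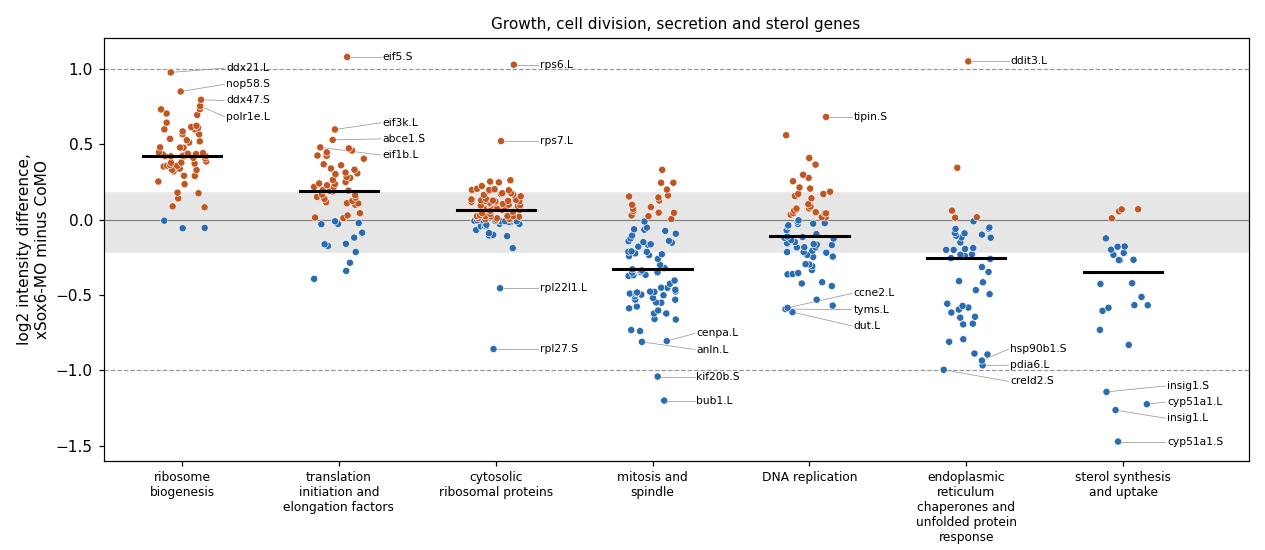
Log2 intensity difference, xSox6-MO minus CoMO, of each measured gene (point) in 7 lists of growth, division, secretion and sterol genes, with medians as black bars, dashed lines at 2-fold and the quartiles of all genes in grey. Ribosome biogenesis has the highest median, 0.43, with 58 of 61 genes above 0. The medians of mitosis (-0.33), endoplasmic reticulum chaperones (-0.25) and sterol synthesis (-0.34) turn positive with poly-A centring, that of replication (-0.11) with either centring.

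Blood genes gave mixed values. Of 29 measured erythroid genes 19 were lower, with a median of -0.21 that turns positive with poly-A centring. The first enzyme of heme synthesis in red cells had an intensity of 320 in CoMO, 180 in xMLTK-MO and 164 in xSox6-MO for alas2.S (-0.96), and alas2.L stood at -0.75. The erythropoietin receptor gene epor.L was at least 1.37-fold lower, as its xSox6-MO value did not pass the negative controls. The bright globin gene hba3.L had 8313, 7502 and 8055 (-0.05, positive with either centring), hbe1.L had 5941, 4655 and 4355 (-0.45), and hbg2.L stood at -0.94. None of the measured globin genes was past 2-fold in either direction.

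White cell genes were higher where they encode granule enzymes. In the myeloid and lymphoid list 11 of 20 were higher, 5 at least 2-fold, with a median of 0.17. Eosinophil peroxidase (epx.L) had an intensity of 85.4 in CoMO, 281 in xMLTK-MO and 307 in xSox6-MO, proteinase 3 (prtn3.L) had 33.7, 142 and 124, and the gelatinase mmp9.1.S had 25.5, 143 and 114. Of 9 annotated granule enzyme genes, grouped after the values were seen, 8 were measured. These 8 were higher, with a median of 1.59 against 1.66 for xMLTK-MO. Among them mpo.S and prss57.S did not pass the negative controls in CoMO and count as measured only through xSox6-MO. They were at least 2.03-fold and 1.64-fold higher, while the median uses their raw values. The lysosomal protease ctss, of antigen-presenting cells, was lower in both homeologs, with ctss.L at -0.74 and ctss.S at -0.59. Complement genes had 15 of 18 higher and 3 at least 2-fold higher at a median of 0.35, against 0.88 for xMLTK-MO. The pore-forming c9.L had 503, 1730 and 1057.

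Among measured genes, the exocrine pancreas and gut lists had positive medians on both morphant arrays. Only 12 of 31 annotated exocrine pancreas genes were measured, 9 of them higher and 4 at least 2-fold higher, with a median of 0.72 for xSox6-MO and 2.07 for xMLTK-MO. Among the 4, pnlip.L did not pass the negative controls in CoMO and counts as measured only through xSox6-MO. It was at least 3.10-fold higher, while the median uses its raw value. With no filter on low values the xSox6-MO median was 0.045. The summed intensity of the measured genes was 832 in CoMO, 5351 in xMLTK-MO and 1483 in xSox6-MO. The elastase gene cela1.1.S had 89.6, 1342 and 245, while the trypsin gene prss2.L had 152, 158 and 94.6. Gut and stomach genes had 11 of 15 measured genes higher at a median of 0.28, which lay under 0.2 in 4 alternatives, down to 0.0067 with no filter on low values. The gastric protease ctse.L had 232, 1384 and 769, and the intestinal fatty acid binding gene fabp2.L had 126, 317 and 104. The gastric proton pump gene atp4a.S, in no list, was at least 5.01-fold higher, with 385 in xMLTK-MO and 117 in xSox6-MO and a CoMO value not above the negative controls. Liver genes had a median of -0.11 over 40 genes, which turns with either centring, and a summed intensity of 52940 in CoMO and 48765 in xSox6-MO. How much foregut tissue each sample held was not recorded, and its part in the gut, pancreas, gata5 and complement values was not tested.

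Kidney genes had 10 of 15 measured genes higher at a median of 0.24 and notochord genes 5 of 8 at 0.22. Both medians rest on few members and lay under 0.2 in most alternatives other than centring. The kidney median was -0.074 with the filter on the mean level, and the notochord median was 0.034 with low values raised to the negative control. The anion transporter slc22a6.S was at least 1.09-fold higher and the notochord factor gene shh.L had an intensity of 310 in CoMO, 419 in xMLTK-MO and 458 in xSox6-MO.

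Skin genes lay on both sides of 0, with a keratin median of 0.04 over 19 measured genes. The keratin genes krt15.1.S, at 157, 103 and 36.3, and krt62.L, at 3578, 1259 and 1651, were past 2-fold lower, and krt70.L, at 92.0, 164 and 195, was past 2-fold higher. A further keratin, krt61.L, was at least 1.15-fold lower, as its xSox6-MO value did not pass the negative controls. The other homeologs were less different, with krt62.S at -0.15 (positive with poly-A centring) and krt70.S at 0.28. The annexin gene anxa1.2.L had an intensity of 240 in CoMO, 286 in xMLTK-MO and 63.4 in xSox6-MO. Its homeolog anxa1.2.S was less different, at -0.37. Of 42 measured desmosome, tight and gap junction genes 20 were lower and 22 higher, with a median of 0.05. Past 2-fold in that list were 3 claudins on the higher side, cldn6.2.S at 217, 534 and 508, cldn6.1.L at 34.6, 82.6 and 79.5, and the stomach and lung claudin cldn18.L at 75.1, 327 and 229. Other claudins were lower, such as cldn1.S at -0.52 and cldn4.L at -0.44.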

How the data were processed

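RNA of stage 41 heads was measured on the Affymetrix Xenopus laevis Genome 2.0 array, 1 array each for CoMO, xMLTK-MO and xSox6-MO, grouped by the treatment label. The deposited intensities are linear, 1 value per probe set. Per the submitters' processing notes the authors used RMA, which corrects background, quantile-normalises arrays and summarises probes, so a shift of all transcripts together cannot be seen. The design text of the series names GeneChip operating Software 1.4 and GeneSpring GX 11.0.2. The log2 of the authors' intensities was taken here. Precision is limited by the number of arrays.

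The platform annotation gave 1 gene symbol to 15505 of 32635 probe sets, several to 279 and none to 16851. A RefSeq table, used for names alone, matched 15394 by gene identifier. Values were averaged per symbol on the log2 scale, those of control probe sets that carry a symbol included. A gene not above the highest of 23 negative controls on 1 array (intensity 23.3 in CoMO, 26.2 in xMLTK-MO, 21.0 in xSox6-MO) has only a bound there, the brighter value over that control, written as at least N-fold. Both morphants are set against the same CoMO array, so their differences share it.

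The members and gene lists were chosen with earlier results of these data known, and 2 list entries were narrowed after their matches were seen, because they caught unrelated genes. Genes named are list members past 2-fold, or otherwise the 4 largest differences, up to 2 that go the other way, the members that define a list, and genes past 2-fold in no list. Other named genes and the subgroups were picked after their values were seen. Alternatives were the brightest probe set, centring on control transcripts, renewed quantile normalisation, other filters on low values, log2(intensity + 16), a fold of 1.5, averaged homeologs and lists without their most different member. Counting was run on simulated data with large planted changes and less noise than between probe sets here. It checks the arithmetic only. Python 3.11.15, numpy 2.4.6, pandas 2.3.3 and matplotlib 3.10.9 were used. No coordinates or sequences are given.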

Additional observations from a re-analysis of the deposited data

How the results depend on the processing

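No paired analysis was possible because each group had 1 array. Genes at least 2-fold higher and lower numbered 181 and 73 when centred on hybridisation controls and 352 and 37 on poly-A controls, a choice added after seeing the data, as was requiring both arrays above the controls. Higher genes numbered 66 with the level filter (mean level at or above the median probe set) and 76 with log2(intensity + 16). At 1.5-fold 445 were higher and 530 lower.

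Of 29 lists, 20 kept direction and side of 0.2 in each alternative but centring. With hybridisation centring medians were -0.069 for proteoglycan synthesis, -0.048 for collagen modification, -0.048 for small leucine-rich proteoglycans, -0.087 for muscle energy, -0.058 for erythroid, -0.17 for lens structure, -0.17 for mitosis, -0.10 for endoplasmic reticulum chaperones, -0.19 for sterol and -0.18 for lipoprotein genes. With poly-A centring these were, in order, 0.12, 0.14, 0.14, 0.10, 0.13, 0.020, 0.018, 0.093, 0.0018 and 0.010, and fast sarcomere was -0.12, rod -0.19, transmitter -0.15 and inner ear -0.19. By construction centring adds 1 shift to every gene. It also moved lists not described as higher past 0.2. Of those with a positive median, 24 passed it with hybridisation centring and 35 with poly-A centring. With hybridisation centring cytosolic ribosomal proteins were at 0.22 and splicing factors at 0.30. Lists that crossed from a negative median are not in these counts.

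With the brightest probe set, proteoglycan synthesis was -0.11, collagen modification -0.20, stress MAPK 0.20 and notochord 0.19. Collagen modification was -0.17 after renewed quantile normalisation, -0.19 with log2(intensity + 16), -0.20 with homeologs averaged and -0.19 without its most different member. Small leucine-rich proteoglycans were -0.16, -0.18, -0.10 and -0.17 in these 4, -0.20 with no filter, -0.15 with the level filter and -0.17 above controls on both arrays. FGF was 0.18 raised to the controls, 0.069 unfiltered, 0.14 with the level filter, 0.18 with log2(intensity + 16), 0.19 without its most different member and 0.18 on both arrays. Kidney was 0.13, 0.091, -0.074, 0.20, 0.17 and 0.17 in these 6. Notochord was 0.034 raised, 0.046 unfiltered, 0.14 with log2(intensity + 16), and 0.076 with homeologs averaged, without its most different member and on both arrays. Gut was 0.0067 unfiltered, 0.10 with the level filter, 0.086 with homeologs averaged and 0.19 without its most different member. Unfiltered, proteoglycan synthesis was -0.16 and pancreas 0.045. Inner ear was -0.22 unfiltered, with homeologs averaged and without otos.S, and -1.62 with the level filter. Beyond the centring shift and fewer genes or members, the cause was not tested. A gene near the negative controls has a value limited by its signal over background. Of the 110 lower genes 12 were not above the controls in xSox6-MO, 7 with a bound under 2-fold, and of the 118 higher genes 26 were not above them in CoMO, 15 with such a bound.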

Other observations

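Sulfate and anion exchangers of the slc26 family were among the unlisted genes at least 2-fold higher in xSox6-MO, chosen here after their values were seen. The intensity of slc26a6.2.L was 57.9 in CoMO, 257 in xMLTK-MO and 173 in xSox6-MO, that of slc26a1.L 60.4, 91.8 and 146, and that of slc26a4l.L 47.2, 64.6 and 123. Of 6 measured slc26 genes the other 3 were not past 2-fold, with slc26a4.3.L at -0.46, slc26a4.3.S at -0.07 and slc26a6 at 0.28.

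Enzymes of amino acid breakdown lay at both ends of the range. Tyrosine aminotransferase (tat.S), the first step of tyrosine breakdown, was at least 3.32-fold lower from an intensity of 69.9 in CoMO, and fumarylacetoacetase (fah.L), its last step, had 422, 245 and 202. The pyrimidine enzyme dpys.L had 341, 198 and 151, and the serine synthesis enzyme phgdh.S, in no list, stood at -1.20. On the higher side, the serine dehydratase gene sds.L had 33.9, 241 and 215, the glucose 6-phosphatase gene g6pc1.1.L had 45.9, 127 and 184, and the arginase gene arg2.S had 159, 596 and 597. The other homeologs did not follow, with g6pc1.1.S at -0.18 and arg2.L at -0.02. The list holding the breakdown enzymes with gluconeogenesis had 3 genes at least 2-fold lower and 3 at least 2-fold higher of 61 measured, with a median of -0.08 that turns with either centring.

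Of 25 measured genes of matrix proteases and their inhibitors 8 were lower and 17 higher, 3 at least 2-fold higher, with a median of 0.18. From these 2 collagenase genes were picked after their values were seen. The intensity of mmp1.S was 26.1 in CoMO, 94.1 in xMLTK-MO and 62.5 in xSox6-MO, and mmp13.S, whose CoMO value did not pass the negative controls, was at least 2.28-fold higher in xSox6-MO. The pluripotency RNA-binding gene lin28a.S had 101, 249 and 204, and the telomerase gene tert.L had 40.8, 83.9 and 81.9.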
